A study of Schizosaccharomyces pombe with 6 samples.

Results

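Non-coding RNAs that were more abundant in fission yeast (*Schizosaccharomyces pombe*) *igo1*Δ-labelled libraries than in wild-type (WT) libraries were described across all 6 RNAseq libraries of the study. They were selected on their measured levels. An annotated non-coding RNA, whose identifier begins with SPNCRNA, was taken if it averaged at least 20 reads over the 2 *igo1*Δ-labelled libraries and the 2 WT libraries, if its mean in the *igo1*Δ-labelled libraries was at least 2 times the WT mean in reads per 1000000 reads on genes (CPM), and if neither *igo1*Δ-labelled library was at or below a WT library. This gave 123 RNAs of the 699 SPNCRNA identifiers with enough reads, of 1529 in the tables and of 7001 genes in all. Since the comparison of *igo1*Δ with WT chose them, their difference in that comparison is a description and was not tested.

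The 2 libraries of *igo1*Δ *nmt41:GST:pab1* + thiamine came from h- cells carrying *igo1*::natMx6 and, marked with KanMx6, a GST-tagged *pab1* gene under the thiamine-repressible *nmt41* promoter, and are called *pab1*-repressed here after their label. The 2 *igo1*Δ-labelled libraries came from h- *igo1*::kanMX6 cells, and the 2 WT libraries from the h- 972 strain. One label field calls both mutant genotypes an igo1 knockdown, although the strain names give a deletion. All cultures had been in nitrogen-free minimal medium at 25 °C for 4 hours, and the libraries were made from total RNA with a kit that keeps the strand. *igo1* encodes Endosulfine, an inhibitor of the PP2A/B55 phosphatase, and *pab1* encodes the B55 subunit. The labels do not say whether replicates were separate cultures or how many clones each strain represents, so the p-values below measure the spread between these libraries.

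Fission yeast transcribes much of its genome outside coding genes. Many of these RNAs start at the promoter of a neighbouring gene and run away from it, or run antisense through a gene, and most are kept scarce by the nuclear exosome, by termination factors and by RNA interference at some loci. A few of the identifiers are stable structural RNAs, such as the RNA of the signal recognition particle. Several well studied cases lie upstream of nutrient-regulated genes, where transcription of the non-coding RNA accompanies repression or activation of the gene.

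The libraries held between 14791399 and 18809513 reads on genes, recovered as whole numbers from the deposited values. Reads at *igo1* were still counted in every library. For *igo1* there were 2307 and 5035 reads in the *pab1*-repressed libraries, 1693 and 1478 in the *igo1*Δ-labelled libraries and 1876 and 2098 in WT, so every direction given here rests on the label. *pab1* had 122 and 68.9 CPM in the *pab1*-repressed libraries, 123 and 98.2 CPM in the *igo1*Δ-labelled libraries and 193 and 188 CPM in WT. Replicate 1 of the *pab1*-repressed pair was thus at the level of the *igo1*Δ-labelled libraries, and *pab1* was not called in this pair against either group (log2 fold changes of -0.73 and -1.15, adjusted p = 0.199 and 0.226, limma), so its repression at the RNA level rests on the label. The thiamine-repressed gene *nmt1* had 3.51 and 3.13 CPM in the *pab1*-repressed libraries, 8292 and 10952 CPM in the *igo1*Δ-labelled libraries and 11217 and 12294 CPM in WT. The labels give thiamine in the growth protocol of all strains, yet *nmt1* was low in the *pab1*-repressed libraries only. Repression of *pab1* and the response to thiamine thus cannot be told apart. All strains are labelled h-, the M mating type. The 3 M-factor pheromone genes *mfm1*, *mfm2* and *mfm3* summed to 760 and 595 CPM in the *pab1*-repressed libraries, 5.88 and 4.37 CPM in the *igo1*Δ-labelled libraries and 812 and 701 CPM in WT. The P-cell genes *map2* and *map3* summed to between 13.0 and 27.3 CPM in all libraries. The *igo1*Δ-labelled libraries thus stand apart in M-factor RNA, and the part of that difference in the results below was not tested. In bulk RNA, fewer cells of a type and less RNA per cell cannot be told apart.

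The 123 RNAs made up 17.6% of the SPNCRNA identifiers with enough reads. The same rule took 6.36% of coding genes and 446 of all 5698 genes with at least 20 reads, or 7.83%. Turned round, it found 116 SPNCRNA identifiers (16.6%) lower in the *igo1*Δ-labelled libraries, beside 11.8% of coding genes and 12.4% of all genes. On this scale the class moved in both directions in like numbers. The median of the mean reads over the 4 libraries was 70 for the 123 RNAs and 66.8 for the other SPNCRNA identifiers. Coding genes that wholly hold an SPNCRNA identifier on the other strand had a median of 1191 reads over all 6 libraries. The part of the lower counts in the larger shares of the SPNCRNA identifiers was not tested. By edgeR with TMM scaling, described below, 241 of the 699 were called higher (34.5%) and 127 lower (18.2%). Over all genes tested the shares were 29.6% and 30.1%. The 699 hold the 123 that this same comparison chose. The CPM scale sets a strict limit here. The median gene had a log2 ratio of -0.36 between the *igo1*Δ-labelled libraries and WT in CPM, against -0.02 with TMM scaling, which equalises the bulk of genes between libraries, and with TMM scaling the rule found 164 RNAs, all 123 among them.

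**Figure D1:**
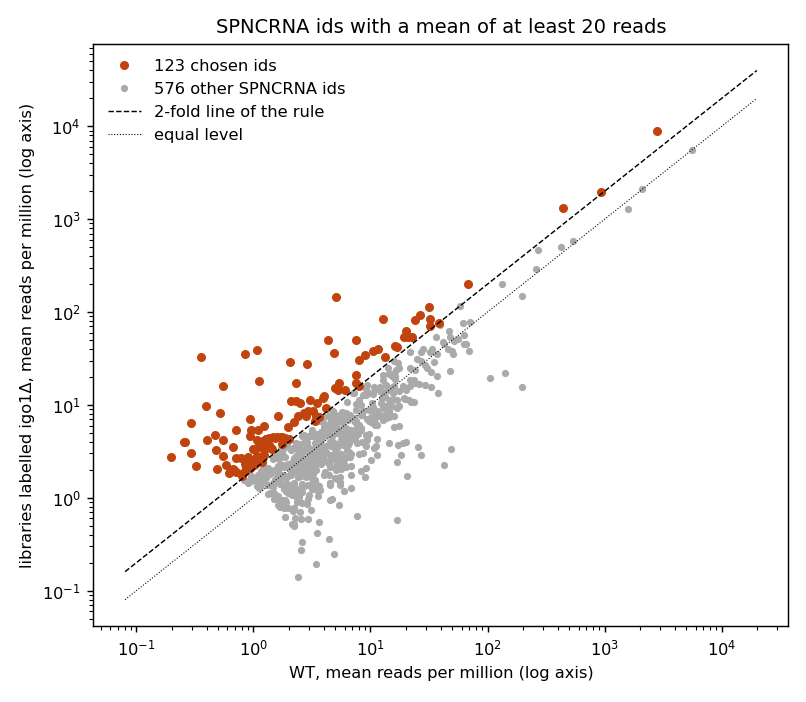
Mean level of each of the 699 SPNCRNA identifiers with enough reads, in the *igo1*Δ-labelled libraries (vertical axis) and in WT (horizontal axis), both in CPM on log axes, with 2 libraries in each mean. The 123 chosen RNAs lie on or above the dashed 2-fold line, the highest of them 92.5-fold over WT, and the grey points are the 576 others.

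Most of the RNAs were scarce. Their median level was 2.45 and 3.58 CPM in the *pab1*-repressed libraries, 7.02 and 5.56 CPM in the *igo1*Δ-labelled libraries and 1.56 and 1.56 CPM in WT. The other 576 SPNCRNA identifiers had medians of 6.43 and 6.91 CPM in the *pab1*-repressed libraries, 3.59 and 2.97 CPM in the *igo1*Δ-labelled libraries and 4.53 and 4.45 CPM in WT. In WT the median of the chosen RNAs was below that of the others, and in the *igo1*Δ-labelled libraries it was above. The rule, which used these same libraries, favours this order, so it is no separate result. The median fold over WT was 3.13. It lay between 2 and 3 for 53 RNAs, between 3 and 5 for 39, between 5 and 10 for 14 and at 10 or above for 17. Just inside the limit stood SPNCRNA.1511 (2.00-fold), SPNCRNA.1305 (2.01-fold) and SPNCRNA.972 (2.03-fold), and just outside it SPNCRNA.904 (1.99-fold), SPNCRNA.1583 (1.96-fold) and SPNCRNA.650 (1.91-fold). No identifier was left out only because its libraries overlapped.

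The largest fold belonged to SPNCRNA.1287 on chromosome III. It had 7 and 0 reads in the *pab1*-repressed libraries, 607 and 592 reads in the *igo1*Δ-labelled libraries and 6 and 5 reads in WT, a 92.5-fold ratio of the *igo1*Δ-labelled libraries to WT in CPM. It lies downstream of and on the same strand as *Tf2-13*, a Tf2 LTR retrotransposon, with 234 bases between them. *Tf2-13* had 4.68 and 1.79 CPM in the *pab1*-repressed libraries, 51.9 and 33.3 CPM in the *igo1*Δ-labelled libraries and 2.91 and 3.73 CPM in WT. It rose by 3.99 on the log2 scale in the *igo1*Δ-labelled libraries (standard error 0.21, adjusted p = 1.52e-06, edgeR's quasi-likelihood test with Benjamini-Hochberg adjustment over all genes), while *taf13*, which codes for a subunit of the general transcription factor TFIID and begins 15 bases beyond the RNA's other end, had a log2 fold change of -0.13 (adjusted p = 0.423, same test). Tf2 copies are nearly identical, so reads may be shared between them, and 12% of the 50-base stretches of SPNCRNA.1287 occur elsewhere in the genome.

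SPNCRNA.606 had 0 and 16 reads in the *pab1*-repressed libraries, 598 and 698 in the *igo1*Δ-labelled libraries and 13 and 13 in WT (42.4-fold, labelled *igo1*Δ over WT). It runs antisense over 736 bases of *isp3*, a gene of the spore wall, which rose by 0.99 on the log2 scale in the *igo1*Δ-labelled libraries (adjusted p = 0.00189, edgeR). SPNCRNA.1337 had 2.50 and 0.576 CPM in the *pab1*-repressed libraries, 39.0 and 38.9 CPM in the *igo1*Δ-labelled libraries and 1.15 and 0.995 CPM in WT (36.3-fold). Both RNAs thus lay close together in the *igo1*Δ-labelled libraries, and the *pab1*-repressed pair lay near WT. SPNCRNA.1337 is antisense to *omh4*, which fell by 0.64 on the log2 scale in the *igo1*Δ-labelled libraries (adjusted p = 0.00198, edgeR).

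A pair of these RNAs lie 51 bases apart on opposite strands of chromosome III. SPNCRNA.1157 had 0.797 and 10.6 CPM in the *pab1*-repressed libraries, 14.3 and 17.7 CPM in the *igo1*Δ-labelled libraries and 0.406 and 0.684 CPM in WT (29.3-fold). SPNCRNA.1156 had 2.02 and 3.58 CPM in the *pab1*-repressed libraries, 17.3 and 19.3 CPM in the *igo1*Δ-labelled libraries and 1.55 and 0.684 CPM in WT (16.3-fold). The *pab1*-repressed libraries disagreed on SPNCRNA.1157 far more than the other pairs did. The coding genes on either side rose as well in the *igo1*Δ-labelled libraries, *gnr1* by 1.6 and *oca2* by 1.34 on the log2 scale (adjusted p = 7.44e-06 and 2.12e-06, edgeR).

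SPNCRNA.863 was the most abundant of the RNAs over 10-fold, with 4.84 and 7.10 CPM in the *pab1*-repressed libraries, 184 and 109 CPM in the *igo1*Δ-labelled libraries and 5.48 and 4.73 CPM in WT (28.8-fold). No coding gene lies within 500 bases of it, and 54.8% of its 50-base stretches occur more than once in the genome, so its reads may in part belong to other copies. The neighbouring SPNCRNA.861, 85 bases away on the same strand, was also among the chosen RNAs (4.75-fold). The other RNAs among the 12 with the largest folds were SPNCRNA.400 (25.1-fold), SPNCRNA.1294 (21.7-fold), SPNCRNA.1255 (15.8-fold), SPNCRNA.1122 (15.7-fold), SPNCRNA.319 (15.5-fold) and SPNCRNA.1344 (14.4-fold).

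Beside SPNCRNA.319, SPNCRNA.400 and SPNCRNA.1344 a neighbouring coding gene rose as well in the *igo1*Δ-labelled libraries. The neighbours of SPNCRNA.1294, SPNCRNA.1255 and SPNCRNA.1122 are not listed here. SPNCRNA.319 overlaps 163 bases of *cta3*, a calcium-transporting ATPase, on the same strand. *cta3* had 126 and 384 CPM in the *pab1*-repressed libraries, 3707 and 3956 CPM in the *igo1*Δ-labelled libraries and 35.9 and 32.5 CPM in WT, and rose by 7.14 on the log2 scale in the *igo1*Δ-labelled libraries (standard error 0.18, adjusted p = 4.17e-08, edgeR). SPNCRNA.319 itself had only 2 and 0 reads in the *pab1*-repressed libraries, 59 and 87 reads in the *igo1*Δ-labelled libraries and 4 and 4 in WT. SPNCRNA.400 lies 138 bases upstream of SPBC365.16, an uncharacterized gene, on the same strand, and SPNCRNA.1524, another of the chosen RNAs, overlaps SPNCRNA.400 over 697 bases on the other strand. SPBC365.16 rose by 2.51 on the log2 scale (adjusted p = 8.76e-07, edgeR). SPNCRNA.1344 is antisense over 682 bases to SPBC1271.08c, which rose by 3.36 (adjusted p = 4.17e-08, edgeR).

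**Figure D2:**
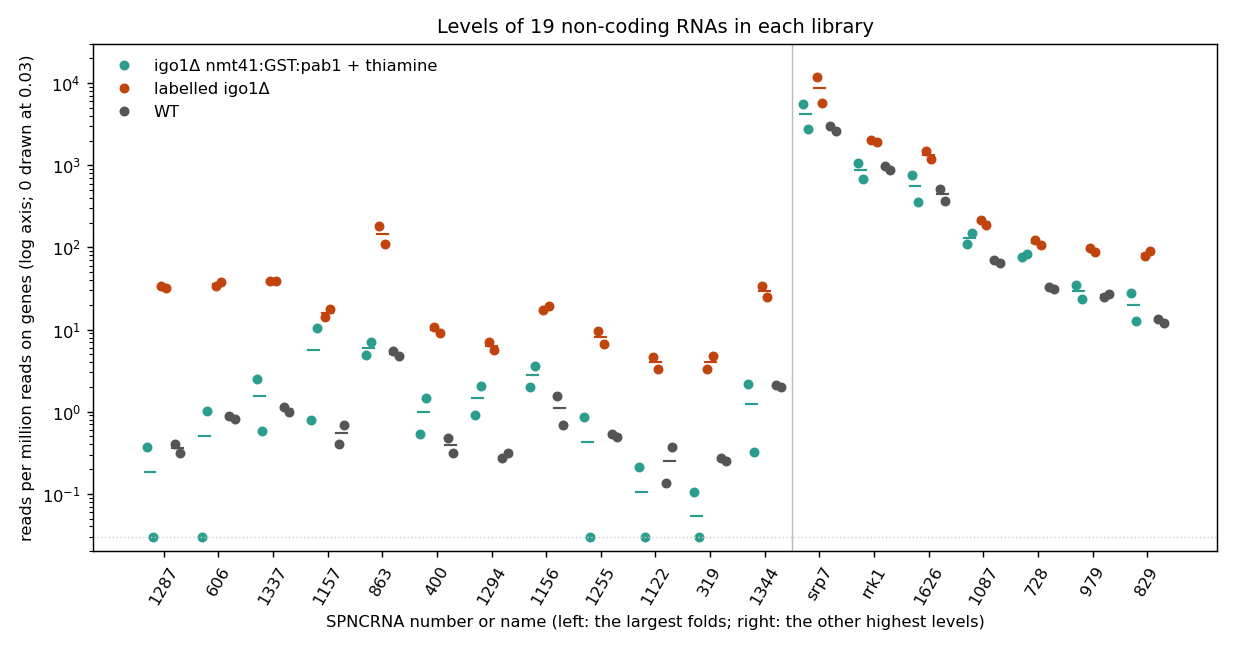
Level of 19 of the chosen RNAs in each library (points) in CPM on a log axis, with short bars at the mean of the 2 libraries of *igo1*Δ *nmt41:GST:pab1* + thiamine, of those labelled *igo1*Δ and of WT, and values of 0 drawn at 0.03. SPNCRNA.1287 shows the widest gap, with 34.3 and 32.0 CPM in the *igo1*Δ-labelled libraries against 0.406 and 0.311 CPM in WT, and in most of the 19 RNAs the *pab1*-repressed libraries lie below those labelled *igo1*Δ.

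At the other end stood a pair of structural RNAs. *srp7* (SPNCRNA.98), the RNA of the signal recognition particle, had 5628 and 2793 CPM in the *pab1*-repressed libraries, 11969 and 5741 CPM in the *igo1*Δ-labelled libraries and 2980 and 2582 CPM in WT. The *igo1*Δ-labelled libraries differed among themselves about as much as the lower of them differed from WT. *rrk1* (SPNCRNA.128), the RNA of ribonuclease P, had 1075 and 673 CPM in the *pab1*-repressed libraries, 2028 and 1897 CPM in the *igo1*Δ-labelled libraries and 979 and 873 CPM in WT, a 2.12-fold ratio of the *igo1*Δ-labelled libraries to WT. Together the 123 RNAs took 0.852% and 0.491% of all reads in the *pab1*-repressed libraries, 1.79% and 1.10% in the *igo1*Δ-labelled libraries and 0.512% and 0.443% in WT, most of it *srp7*.

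SPNCRNA.1626, a transcript of 5113 bases on chromosome II, came next with 759 and 357 CPM in the *pab1*-repressed libraries, 1476 and 1183 CPM in the *igo1*Δ-labelled libraries and 518 and 370 CPM in WT (2.99-fold). It runs antisense over 2020 bases of *mbx2*, a MADS-box transcription factor gene, which fell by 1.30 on the log2 scale in the *igo1*Δ-labelled libraries (standard error 0.10, adjusted p = 1.25e-05, edgeR). SPNCRNA.1087 had 109 and 151 CPM in the *pab1*-repressed libraries, 218 and 187 CPM in the *igo1*Δ-labelled libraries and 70.1 and 65.2 CPM in WT, and its antisense partner *gto1* fell by 0.83 (adjusted p = 0.00536, edgeR). Antisense partners did not always fall. SPNCRNA.979 had 34.9 and 23.4 CPM in the *pab1*-repressed libraries, 98.7 and 89.0 CPM in the *igo1*Δ-labelled libraries and 25.2 and 27.3 CPM in WT, and it overlaps the glycerol-3-phosphate dehydrogenase gene *gpd2* by 106 bases on the other strand, which rose by 1.95 on the log2 scale (adjusted p = 3e-07, edgeR). SPNCRNA.829 crosses 3 coding genes in antisense, of which the tryptophan synthase gene *trp2* rose by 1.72 and *pth2* fell by 0.95 (adjusted p = 2.21e-06 and 0.000884, edgeR).

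SPNCRNA.728 lies at the *igo1* locus. It starts 120 bases upstream of *igo1* and runs away from it on the other strand, next to the gene that, by the strain names, kanMX6 or natMx6 replaces. It had 75.6 and 83.0 CPM in the *pab1*-repressed libraries, 123 and 106 CPM in the *igo1*Δ-labelled libraries and 33.0 and 30.8 CPM in WT. The rule required the *igo1*Δ-labelled pair to lie above WT, and the *pab1*-repressed pair lay above both WT libraries as well. In CPM the latter pair did so for 54.5% of the 123 RNAs, 49.1% of other SPNCRNA identifiers and 32.3% of genes with at least 20 reads. The part of the marker in the level of SPNCRNA.728 was not tested. SPNCRNA.953, chosen for mention after its values were seen, starts 221 bases from *ppk18*, one of the Greatwall kinase genes, in the same arrangement. It had 2.23 and 2.17 CPM in the *pab1*-repressed libraries, 51.2 and 48.9 CPM in the *igo1*Δ-labelled libraries and 7.84 and 7.28 CPM in WT, and here the *pab1*-repressed pair lay below WT.

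The reference names 2 others of the RNAs, both beside nutrient-regulated genes. *fbp1-ot3* (SPNCRNA.1325) lies upstream of the gluconeogenic gene *fbp1*, 39 bases from it, and had 2.82 and 17.7 CPM in the *pab1*-repressed libraries, 16.4 and 12.7 CPM in the *igo1*Δ-labelled libraries and 5.07 and 5.41 CPM in WT. *fbp1* itself rose by 0.81 on the log2 scale in the *igo1*Δ-labelled libraries (standard error 0.12, adjusted p = 0.000415, edgeR). ncRNA.1343 (SPNCRNA.1343), which is transcribed in the region of the phosphate-regulated gene *tgp1*, had 1.38 and 3.71 CPM in the *pab1*-repressed libraries, 2.89 and 2.75 CPM in the *igo1*Δ-labelled libraries and 0.473 and 0.622 CPM in WT. It lies 423 bases from SPNCRNA.1344 on the other strand, and the *pab1*-repressed libraries span the level of the *igo1*Δ-labelled libraries.

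The *pab1*-repressed libraries took no part in the choice, but each comparison with them shares libraries with it, so those with the chosen high *igo1*Δ-labelled libraries lean downwards and those with the chosen low WT libraries lean upwards. On the deposited normalized counts, both *pab1*-repressed libraries lay below both *igo1*Δ-labelled libraries for 98 of the 123 RNAs (79.7%), against 15.5% of the other SPNCRNA identifiers and 35.8% of all genes with at least 20 reads. They lay above both *igo1*Δ-labelled libraries for 2 RNAs (1.63%), against 44.6% of the other SPNCRNA identifiers and 31.6% of all genes. Against WT, both *pab1*-repressed libraries lay above both WT libraries for 64 RNAs (52.0%), against 44.1% of the other SPNCRNA identifiers and 26.1% of all genes, and below both for 12 (9.76%), against 11.8% of the other SPNCRNA identifiers and 29.6% of all genes. In CPM the first count was 81, against 17.9% of all genes.

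In the test across all genes, limma on log2(normalized count + 1), 40 of the 123 RNAs were lower and 0 higher in the *pab1*-repressed pair against the *igo1*Δ-labelled pair (adjusted p threshold 0.05), with 74 at an unadjusted p under 0.05. By edgeR on the recovered reads 33 were lower and 0 higher, beside 5.18% and 2.97% of all genes, and by DESeq2 61 were lower and 1 higher, beside 12% and 9.28% of all genes. Over all genes tested limma called 6.12% lower and 2.91% higher. The median log2 fold change of the 123 RNAs was -1.50, that of all genes tested 0.00 and that of the other SPNCRNA identifiers 0.41, of which 7 of 576 were lower and 26 higher. With upper-quartile scaling the medians were -1.32 for the 123 RNAs and 0.19 for all genes, and 32 were lower. With a library left out the count of lower RNAs shifted widely, to 9 and 11 without replicate 1 or 2 of the *igo1*Δ-labelled libraries and to 87 and 97 without replicate 1 or 2 of the *pab1*-repressed libraries, and the median stayed between -1.54 and -1.49. The *pab1*-repressed pair spread more than the others. Among RNAs with at least 20 reads in a library of the pair, its members differed over 2-fold in 48 of 113 cases, against 2 of 123 in the *igo1*Δ-labelled libraries and 2 of 79 in WT. The rule favours RNAs with close *igo1*Δ-labelled and WT pairs. Without that limit on reads, the *pab1*-repressed pair differed over 2-fold for 44.7% of the 123 RNAs and 38.9% of the other SPNCRNA identifiers. Of all 5698 genes with at least 20 reads it was 19.2%, against 83 genes in the *igo1*Δ-labelled pair and 36 in WT.

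Against WT, limma called none of the 115 RNAs with enough signal in either direction, with 30 at an unadjusted p under 0.05. Over all genes tested 0% were called higher and 0.0331% lower, with 1108 genes at an unadjusted p under 0.05. DESeq2 on the recovered reads called 12 of the RNAs higher and 2 lower, beside 3.21% and 2.53% of all genes, and edgeR on the same reads called 0, beside 0% higher and 0.0331% lower. The median log2 fold change of these RNAs against WT was 0.61, beside 0.40 for the other SPNCRNA identifiers and -0.01 for all genes tested. The filter on signal left out RNAs scarce in both groups. More of those left out lay below WT in mean CPM than above it, and the median is without them. The part of the low counts and of the spread between the *pab1*-repressed libraries in this result was not tested.

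**Figure D3:**
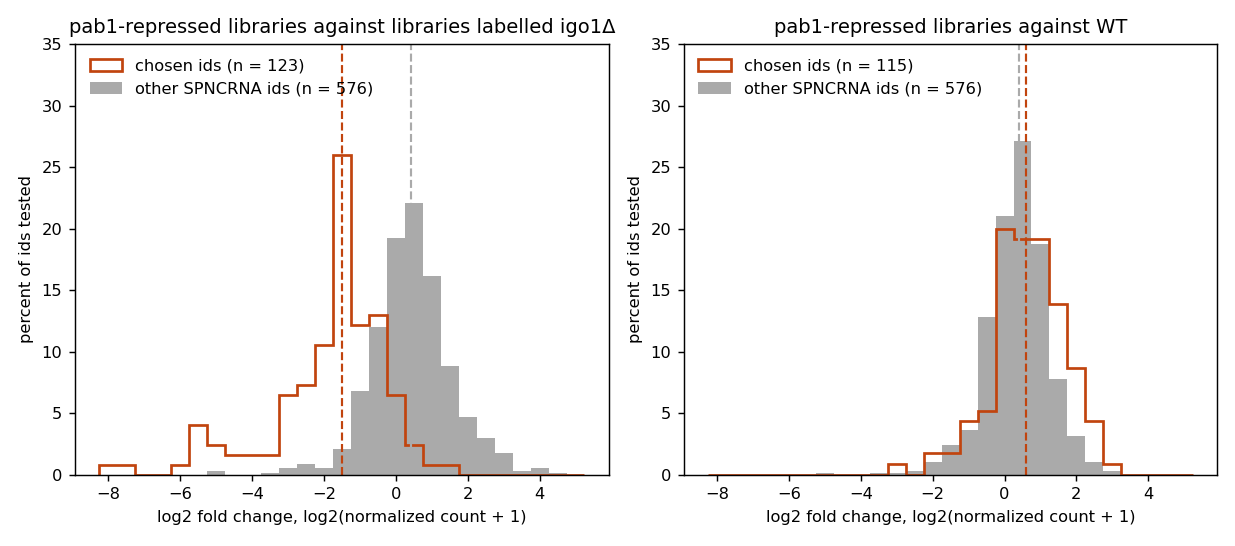
Distribution of log2 fold changes of the *pab1*-repressed pair against the *igo1*Δ-labelled pair (left panel) and against WT (right panel) for the chosen RNAs (red outline) and the other SPNCRNA identifiers (grey), in percent of the identifiers tested, with dashed lines at the medians. Against the *igo1*Δ-labelled libraries the medians stand at -1.50 and 0.41, and against WT at 0.61 and 0.40.

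The 5 largest called differences from the *igo1*Δ-labelled pair are named here. These RNAs were chosen as high in that same pair, so their falls lean downwards and their p-values are not independent of the choice. The largest was again SPNCRNA.1287, with a log2 fold change of -8.06 in the *pab1*-repressed pair against the *igo1*Δ-labelled pair (standard error 0.97, adjusted p = 0.02, limma). SPNCRNA.606 (-7.53, adjusted p = 0.0418, limma), SPNCRNA.448 (-6.03, adjusted p = 0.02, limma), SPNCRNA.319 (-5.68, adjusted p = 0.0287, limma) and SPNCRNA.1344 (-5.43, adjusted p = 0.0358, limma) followed. These fitted values depend on the added count, and with 0.1 in place of 1 the calls of SPNCRNA.1287, SPNCRNA.606 and SPNCRNA.319 were lost (adjusted p = 0.0529, 0.0833 and 0.0639, limma). SPNCRNA.448 and SPNCRNA.319 had at most 3 reads in either *pab1*-repressed library. Against a floor of 3 reads per library SPNCRNA.448 was at least 23.9-fold lower in CPM than in the *igo1*Δ-labelled libraries, and SPNCRNA.319 at least 22.9-fold lower. SPNCRNA.448 consists of repeated sequence over 96.5% of its 50-base stretches. Leaving out either *igo1*Δ-labelled library ended the calls of SPNCRNA.448 and SPNCRNA.319, and leaving out replicate 1 that of SPNCRNA.1344.

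In 6 RNAs (4.88%) both *pab1*-repressed libraries lay above both *igo1*Δ-labelled libraries in CPM, and limma called none of them. The same held for 60.9% of the other SPNCRNA identifiers and 54% of all genes with at least 20 reads. On the deposited normalized counts the number was 2, as given above. SPNCRNA.1063 was the clearest, with 9.04 and 14.8 CPM in the *pab1*-repressed libraries, 4.13 and 2.86 CPM in the *igo1*Δ-labelled libraries and 0.947 and 1.24 CPM in WT. It lies 39 bases upstream of *adg1*, a cell-surface glycoprotein gene, on the same strand. *adg1* had 6.43 and 138 CPM in the *pab1*-repressed libraries, 33.0 and 31.1 CPM in the *igo1*Δ-labelled libraries and 271 and 286 CPM in WT, and fell by 2.79 on the log2 scale in the *igo1*Δ-labelled libraries (adjusted p = 4.26e-08, edgeR). The RNA and the gene thus stood in opposite order in the *igo1*Δ-labelled libraries and WT. The other 5 were SPNCRNA.1023, SPNCRNA.1524, SPNCRNA.658, SPNCRNA.838 and SPNCRNA.1466, the last of which lies 450 bases downstream of the retrotransposon *Tf2-9*, which rose by 5.03 in the *igo1*Δ-labelled libraries (adjusted p = 1.88e-05, edgeR). The other way round, and chosen after its values were seen, was SPNCRNA.1531, with 1.97 and 8.19 CPM in the *pab1*-repressed libraries, 88.1 and 78.3 CPM in the *igo1*Δ-labelled libraries and 32.0 and 32.1 CPM in WT.

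Position and composition, which the rule did not use, were read from the ASM294v3 reference for the 120 RNAs it annotates. They lay on chromosomes I (53), II (43) and III (24), and 4 (3.33%) were no more than 100 kb from the ends of chromosomes I and II, against 2.98% of the other SPNCRNA identifiers. Their median length was 1402 bases against 1533 bases, and their median GC content 36.5% against 35.5%. Fewer overlapped a coding gene on the opposite strand, 65.0% against 76.9% of the others, and 90.0% against 96.3% lay within 500 bases of a coding gene. Another of the 123 lay within 1000 bases of 22 of them, 18.3%, where 17.3% of the other identifiers and 5.26% of those found lower had another of their own set as near, and the sets differ in size. They formed 11 pairs such as SPNCRNA.1571 and SPNCRNA.1572, which overlap by 2622 bases on opposite strands at *gsf1*. No test was made of these differences.

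The coding genes around the RNAs were read from the edgeR comparison of the *igo1*Δ-labelled libraries with WT, in which 29.6% of all 5931 genes tested rose and 30.1% fell. Of the 196 coding genes tested that overlap one of the RNAs or lie within 500 bases, 93 (47.4%) rose and 60 (30.6%) fell, with a median log2 fold change of 0.25 beside -0.03 for all genes tested. With upper-quartile scaling 1467 of all genes rose and 2278 fell, against 1754 and 1785 with TMM, and among the 196 neighbours 87 rose and 65 fell. Of the 999 genes beside other SPNCRNA identifiers, 29.6% rose and 32.5% fell, with a median of -0.06. In the *pab1*-repressed libraries 39 of the 196 (19.9%) were lower than in the *igo1*Δ-labelled libraries by limma and 8 (4.08%) higher, beside 5.77% and 3.98% of the genes next to other SPNCRNA identifiers and 6.12% and 2.91% of all genes. The count of lower neighbours was 15 and 17 without replicate 1 or 2 of the *igo1*Δ-labelled libraries, and 95 and 87 without replicate 1 or 2 of the *pab1*-repressed libraries. Where a gene overlaps an RNA the reads may be shared, so the genes are not independent of the RNAs that chose them.

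The share of risers differed with the arrangement. Among genes whose RNA starts upstream of them and runs away on the other strand without overlap (the divergent arrangement, split off after the values were seen), 27 of 35 (77.1%) rose in the *igo1*Δ-labelled libraries and 6 (17.1%) fell, against 66 of 219 (30.1%) and 68 (31.1%) for genes in the same position beside other SPNCRNA identifiers. This share lay between 74.3% and 82.9% with each library left out, and at 18 of 35 with all 6 libraries in one fit. The genes included *mam301* (log2 fold change 3.09), the NADP-dependent glutamate dehydrogenase gene *gdh1* (2.75), the aconitase gene *aco1* (1.05), the polyfunctional aromatic amino acid gene *aro1* (1.29) and the phosphate transporter family gene *pho842* (1.34). *gdh1* had 495 and 226 CPM in the *pab1*-repressed libraries, 2248 and 2561 CPM in the *igo1*Δ-labelled libraries and 451 and 454 CPM in WT. Its RNA, SPNCRNA.1195, had 18.7 and 20.4 CPM in the *pab1*-repressed libraries, 45.0 and 39.1 CPM in the *igo1*Δ-labelled libraries and 16.9 and 16.6 CPM in WT. Both members of this pair were high in the *igo1*Δ-labelled libraries only. The strongest exception was SPBC27.05, beside SPNCRNA.1447, which fell by 4.02.

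Genes overlapped on the same strand showed a like share. Of 19 such genes 14 (73.7%) rose and 2 fell, against 36.0% and 31.4% of 86 genes beside other SPNCRNA identifiers. Besides *cta3* they included *inv1*, the secreted invertase, which had 23.0 and 24.0 CPM in the *pab1*-repressed libraries, 709 and 746 CPM in the *igo1*Δ-labelled libraries and 10.4 and 14.9 CPM in WT, a log2 fold change of 6.17 in the *igo1*Δ-labelled libraries against WT (standard error 0.17, adjusted p = 4.35e-08, edgeR). Its RNA, SPNCRNA.1224, overlaps it by 67 bases and had 1.12 and 0 CPM in the *pab1*-repressed libraries, 4.70 and 3.62 CPM in the *igo1*Δ-labelled libraries and 0.608 and 0.498 CPM in WT. The histidine gene *his4* (2.24), the eisosome-linked gene *fhn1* (2.03) and the heat-shock gene *hsp9* (1.75) belonged to the same group. Apart from *cta3*, the genes named here were picked from those that rose, after their values were seen. These overlaps were short, at most 388 bases, and a read there cannot be assigned to one transcript alone.

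Of 90 genes tested that one of the RNAs overlaps on the other strand, 30 (33.3%) rose and 38 (42.2%) fell in the *igo1*Δ-labelled libraries, against 27.5% and 32.1% of 523 genes beside other SPNCRNA identifiers. The largest fall was that of *ams2*, a GATA-type factor of histone gene transcription, covered by SPNCRNA.1252 over 2737 bases. *ams2* had 162 and 205 CPM in the *pab1*-repressed libraries, 19.6 and 16.0 CPM in the *igo1*Δ-labelled libraries and 218 and 224 CPM in WT (log2 fold change -3.31 in the *igo1*Δ-labelled libraries against WT, standard error 0.08, adjusted p = 4.17e-08, edgeR). SPNCRNA.1252 had 5.37 and 4.28 CPM in the *pab1*-repressed libraries, 11.7 and 10.3 CPM in the *igo1*Δ-labelled libraries and 1.96 and 2.67 CPM in WT. The gene and the RNA were thus in opposite order, and in the *pab1*-repressed libraries the gene lay near WT. *mrc1*, the replication checkpoint mediator (-1.89), the kinase gene *shk2* (-1.99) and *uds1* (-3.08) were other falls opposite chosen RNAs. Rises in the same arrangement included *lys12*, of lysine synthesis, with 55.8 and 51.3 CPM in the *pab1*-repressed libraries, 802 and 883 CPM in the *igo1*Δ-labelled libraries and 90.9 and 92.1 CPM in WT. These neighbours were named after their values were seen.

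**Figure D4:**
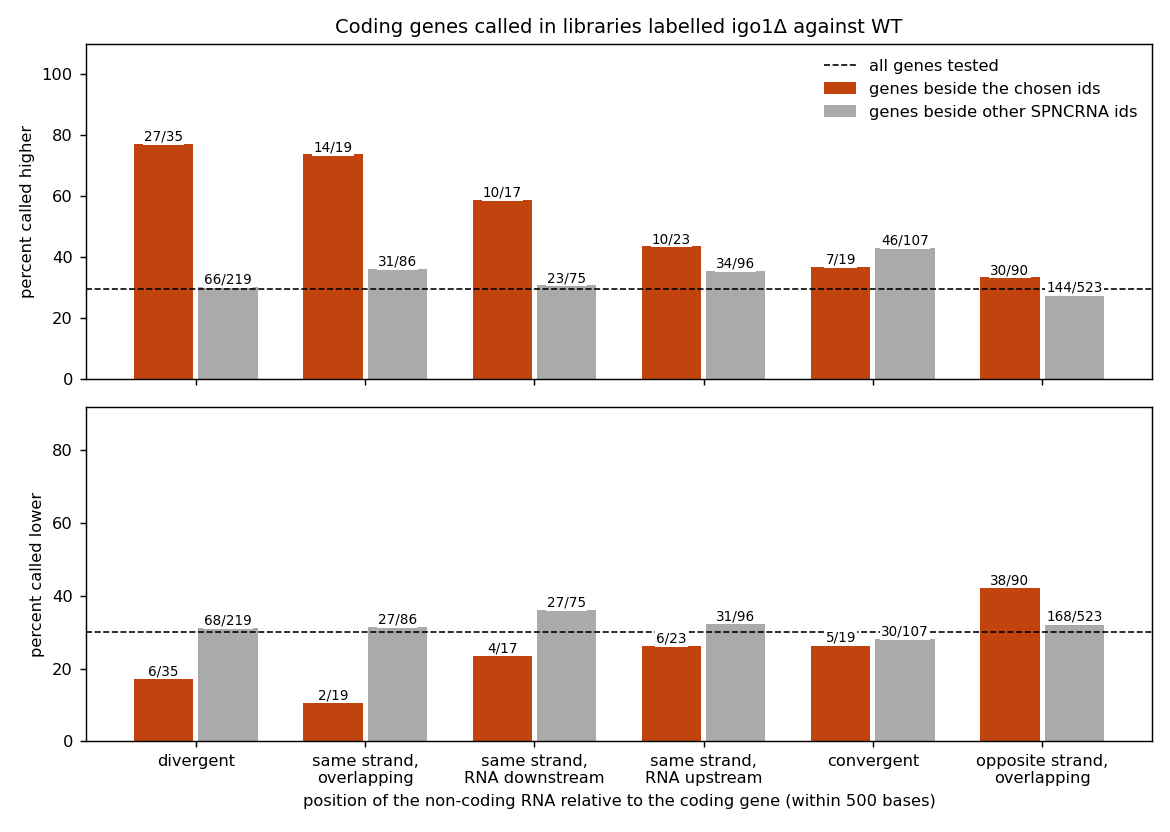
Percent of tested coding genes that edgeR called higher (upper panel) and lower (lower panel), *igo1*Δ-labelled against WT, by the position of the chosen RNAs (red) or of other SPNCRNA identifiers (grey) beside them, with gene counts above the bars and a dashed line at all genes tested, 29.6% and 30.1%. The divergent and same-strand overlapping genes stand highest among the risers at 77.1% and 73.7%, and a gene may stand in more than one position and in both sets.

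How far the counting kept the strands apart bears on the antisense values. Of 145 SPNCRNA identifiers that lie wholly inside a coding gene on the other strand, 4 had no read in any library and 71 averaged at least 20 reads, and their median density of reads per base was 0.0274 of that of the gene. The libraries keep the strand, but whether the authors counted by strand is not given in the sources used here. Of the chosen RNAs 12 were of this kind. Of the 120 in the reference, 78 (65.0%) overlapped a coding gene on the other strand over at least part of their length. For all of these, reads of the RNA and of its partner may be mixed.

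Genes that remove or limit non-coding RNA were read out as 5 lists. Of the 66 genes, all tested, 15 (22.7%) rose and 22 (33.3%) fell in the *igo1*Δ-labelled libraries against WT, close to the 29.6% and 30.1% over all genes, with a median log2 fold change of -0.11. The symbol *pat1*, listed under cytoplasmic decay, belongs in these tables to the Ran1/Pat1 kinase, an inhibitor of meiosis and not a decay factor, and without it 14 of 65 rose and 22 fell. The RNA interference list had 9 of 11 genes lower and 0 higher by edgeR, with a median of -0.33. Among them *arb2*, of the Argonaute chaperone complex, fell by 0.81, the RNA-dependent RNA polymerase gene *rdp1* by 0.49 and the Dicer gene *dcr1* by 0.38. All 9 had an unadjusted p under 0.05, DESeq2 called 6 lower, and 4 were lower without replicate 2 of WT and 1 in one fit of all 6 libraries. In CPM *arb2* had 31.2 and 28.9 in the *pab1*-repressed libraries, 13.4 and 11.8 in the *igo1*Δ-labelled libraries and 27.2 and 28.2 in WT. The CPM ratio is larger than the fitted change because the CPM of most genes is shifted in the *igo1*Δ-labelled libraries, as given above.

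The nuclear exosome list, the chief nuclear RNA-degrading complex, had 2 of 12 genes higher and 3 lower, with *mtr3* up by 0.75 (adjusted p = 6.09e-05, edgeR) and *rrp42* down, at -0.68 (adjusted p = 0.000374, edgeR). The MTREC, Mmi1 and TRAMP list, of the factors that bring RNAs to the exosome, had 3 of 15 higher and 3 lower. The cytoplasmic decay list had 2 of 11 higher and 6 lower, counting the *pat1* kinase gene, up by 1.13 (adjusted p = 1.29e-05, edgeR), and the helicase gene *ste13* stood at -0.81 (adjusted p = 3.69e-05, edgeR). The termination and chromatin list had 8 of 17 higher and 1 lower, led by the termination factor *pcf11* at 1.14 (standard error 0.08, adjusted p = 6.17e-06, edgeR), and with upper-quartile scaling 4 were higher and 4 lower. Without replicate 2 of WT 3 were higher, and in one fit of all 6 libraries 1 was. In the *pab1*-repressed libraries none of the 66 genes differed from the *igo1*Δ-labelled libraries by limma, with 16 at an unadjusted p under 0.05, while edgeR called 1 higher and DESeq2 2 higher and 4 lower. Over all genes limma called 2.91% higher and 6.12% lower, edgeR 2.97% and 5.18%, and DESeq2 9.28% and 12%. One fit of all 6 libraries called 10 of the 66 higher and 6 lower, and its counts over all genes are given in the section on processing below. With a *pab1*-repressed library left out limma called more of the 66, as it did over all genes.

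**Figure D5:**
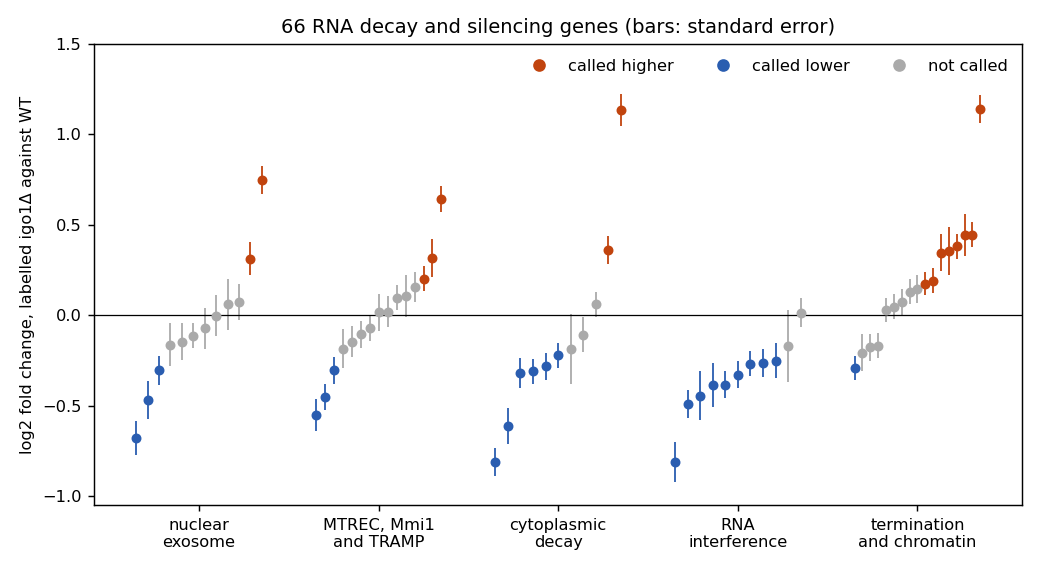
Log2 fold change of 66 RNA decay and silencing genes in the *igo1*Δ-labelled libraries against WT (edgeR, 2 libraries in each group), by list, each with its standard error and coloured by whether it was called. The RNA interference genes lie at or below 0.015, with a median of -0.33, and the other lists spread to both sides of 0, the highest cytoplasmic decay point being the *pat1* kinase gene at 1.13.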

How the data were processed

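Per the labels, reads were handled with FastQC 0.11.8, Trimmomatic 0.38, HISAT2 2.1.0 on ASM294v2 and featureCounts (Subread 1.6.3). The authors deposited a normalized signal per gene, the count divided by a DESeq2 size factor computed within each of the pair of tables. The use of strand and of reads with several matches is not given in the sources used here.

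Each column was divided by its smallest positive value, which gave whole reads for 100% of values (relative tolerance 1e-06), and CPM are these reads per 1000000 of the column total. WT and *igo1*Δ stand in different tables, so edgeR 4.0.16 (TMM, quasi-likelihood test) was run on the recovered reads of both. The *pab1*-repressed libraries were compared within each table with limma 3.58.1 (trend) on log2(normalized count + 1). Both used genes with a mean of at least 10 and Benjamini-Hochberg adjustment over all of them, with calls at an adjusted p under 0.05. A design of 2 libraries against 2 allows no permutation test that reaches this threshold. Replicates differed beyond sampling noise in each group, with a chi-square per gene of 430 in the *pab1*-repressed libraries, 41.5 in the *igo1*Δ-labelled libraries and 9.57 in WT. The tests were checked on simulated data.

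Named RNAs are the 12 of largest fold and 8 of highest level, those with a reference name, those above both libraries labelled *igo1*Δ in the *pab1*-repressed libraries, those called against WT, the 5 largest called differences from *igo1*Δ and the 3 on each side of the limit. Named genes are coding neighbours of the 12 and the 8 and the 3 largest called changes each way of the decay lists. The members and lists were chosen with earlier results of these data known. Other neighbouring genes, and RNAs marked so above, were named after their values were seen. Names and positions come from ASM294v3, to which 6863 of 7001 identifiers (98.0%) and 120 of the 123 RNAs matched; builds differ, so no coordinates or sequences are given. Alternatives covered scaling, tool, filter, pseudocount, pairing, distance and each library left out. R 4.3.3, DESeq2 1.42.0 and Python were used.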

Additional observations from a re-analysis of the deposited data

How the results depend on the processing

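The number of RNAs found ranged from 105 to 131 with each library left out, with between 103 and 119 of the 123 kept. It was 76 with a minimum of 50 reads, which tests fewer identifiers, 145 with 10 reads, and 155 to 169 with other scalings. For *igo1*Δ against WT the rule fixes the sign of the median log2 fold change of the RNAs, so it is no separate result. For the *pab1*-repressed libraries the median kept its sign under all settings in both comparisons. Each of these shares libraries with the choice and leans the same way. With a library left out it was -1.54 to -1.49 against *igo1*Δ and 0.59 to 0.70 against WT.

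For *igo1*Δ against WT, one fit of all 6 libraries, which takes its spread partly from the *pab1*-repressed pair, called 513 genes higher and 374 lower, 51 neighbours higher and 14 lower, and 2 decay genes higher and 2 lower. Overlapping neighbours alone gave 43 higher. Upper-quartile scaling gave 8 decay genes higher and 29 lower. With a library left out, higher and lower calls ranged from 1430 to 1978 and 1351 to 1936 over all genes, 86 to 100 and 46 to 60 among neighbours, and 6 to 17 and 14 to 27 among decay genes, where the lowest values were without replicate 2 of WT.

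For the *pab1*-repressed libraries against *igo1*Δ, DESeq2 called 1 RNA higher and 61 lower, and 563 genes higher and 729 lower. The fit of all 6 called 1 RNA higher and 777 genes higher and 878 lower. With a library left out, 0 to 7 RNAs were higher and 9 to 97 lower, and 34 to 1851 genes higher and 89 to 2015 lower, with most calls when one *pab1*-repressed library stood alone and was taken to vary like the other group.

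Against WT, DESeq2 called 12 RNAs higher and 2 lower, and 194 genes higher and 153 lower. The fit of all 6 called 3 and 1 RNAs, and 47 and 76 genes. With a library left out, 0 to 51 RNAs were higher and 0 to 12 lower, and 0 to 2032 genes higher and 3 to 2178 lower.

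Replicate numbers are shared across groups, but the deviations of same-numbered libraries correlated at only 0.02 to 0.14, which does not pair them. With the replicate number as a block, 38 RNAs were lower against *igo1*Δ, and against WT 6 genes were higher and 15 lower. Among 37 single-gene values, *taf13* alone changed sign, with a log2 fold change between -0.2503 and 0.008966 over the libraries left out and above 0 without replicate 2 of *igo1*Δ, and 14 kept their side of the threshold under all settings. Why these counts moved was not tested beyond what is stated. RNAs with few reads, and the spread of the *pab1*-repressed pair, limit the calls.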
